A study of Mus musculus with 6 samples.

Results

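Matrix metalloproteinases and their secreted inhibitor Timp1 were examined here: Mmp2, Mmp3, Mmp8, Mmp9, Mmp12, Mmp13, Mmp14, Mmp19, Mmp23 and Timp1, 10 of the 31053 genes listed for each library. The members were taken by gene symbol, and all 10 were found in all 6 count matrices. The matrices list 22 Mmp symbols, of which 9 are members and the other 13 serve as a comparison list. Matrix metalloproteinases are zinc-dependent endopeptidases that are made as inactive precursors and that cut collagens, elastin, proteoglycans and many signalling proteins. Tissue inhibitors such as Timp1 bind the active site and block it. In skin wounds these enzymes let cells move through the provisional matrix and remodel the new tissue, and leukocytes and fibroblasts are known to make different sets of them.

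Cells were profiled by droplet single-cell RNA sequencing, with 1 library for each of 6 conditions. The 3 culture libraries hold mouse bone-marrow-derived dendritic cells (DCs) grown with GM-CSF, of which only the cells in suspension were taken: untreated DCs, DCs given 1e-06 M 1,25-dihydroxycholecalciferol for 24 h from day 7 (VD3 DCs), and DCs electroporated with Cas9 ribonucleoprotein and a mix of 3 guides against Ndrg2 (Ndrg2-KO DCs). The cultured untreated DCs were not electroporated, so electroporation and the knockout cannot be told apart in that comparison. The 3 wound libraries hold cells of 6 mm splinted excisional wounds of 6-week-old C57BL/6J mice, covered with a pullulan-collagen hydrogel that carried control DCs, Ndrg2-KO DCs or no cells (blank hydrogel), and explanted on day 10. Per the study there were 5 mice in each wound group and 2 wounds on each mouse, and each group has 1 library here, in which mice and wounds cannot be told apart. The series' design text instead speaks of GFP+ cells isolated from wounds of parabiotic mice, whereas the sample labels and the methods do not, and EGFP was read at 0, 1 and 0 UMIs in control DC, Ndrg2-KO DC and blank hydrogel wounds. Whether the wound cells were sorted was not tested, and a sort would change what the shares of cell classes stand for. The labels call the control DCs of the wounds untreated, whereas the methods describe them as electroporated with non-targeting guides.

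After filters on cells (at least 300 genes, under 100000 UMIs, under 10% mitochondrial UMIs) the DC libraries held 7257 to 8825 cells and 116461484 to 143627482 UMIs (unique molecular identifiers, 1 per captured transcript), and the wound libraries 1948 to 5681 cells and 29675507 to 49240341 UMIs. Any 2 libraries shared 1 to 19 cell barcodes, at most 0.264% of either. Ndrg2 itself stood at 4.62, 1.42 and 0.884 UMIs per 1000000 UMIs (CPM) in untreated, VD3 and Ndrg2-KO DCs, and at 6.10, 3.33 and 3.29 CPM in control DC, Ndrg2-KO DC and blank hydrogel wounds. These are tags from the 3′ end of transcripts, which do not read the edited site. Itgax, a DC marker, stood at 146, 77.8 and 263 CPM in the untreated, VD3 and Ndrg2-KO cultures. With 1 library per condition there is no test of any difference below: all 95% intervals cover counting error only, and animals or cultures cannot be told apart from conditions.

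The 10 genes lie on 7 chromosomes, but 4 of the proteases are neighbours. On mouse chromosome 9 (GRCm38, GENCODE M21) Mmp13 at chr9:7272514-7283331, Mmp12 at chr9:7344381-7369499, Mmp3 at chr9:7445822-7455975 and Mmp8 at chr9:7558456-7568485 sit on the plus strand within 296 kb. The collagenases Mmp8 and Mmp13 cut fibrillar collagen, Mmp12 is the macrophage metalloelastase, and Mmp3 is stromelysin-1, which cuts proteoglycans and fibronectin and activates other precursors. In the wounds Mmp3 lay mainly in fibroblast-like cells and the other 3 mainly in 1 unnamed cluster, so the 100 bases before each RefSeq start (GRCm38.p6, plus strand, 5′ to 3′) are shown side by side, with capitals marking the AP-1 motif TGACTCA or its reverse complement TGAGTCA. For Mmp12 RefSeq lists 2 starts.

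Mmp13, chr9:7272414-7272513: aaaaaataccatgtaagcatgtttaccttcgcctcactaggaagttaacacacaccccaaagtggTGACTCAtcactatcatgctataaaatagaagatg

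Mmp12 first start, chr9:7344297-7344396: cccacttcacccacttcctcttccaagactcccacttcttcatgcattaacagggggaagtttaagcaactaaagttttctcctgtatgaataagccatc

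Mmp12 second start, chr9:7347274-7347373: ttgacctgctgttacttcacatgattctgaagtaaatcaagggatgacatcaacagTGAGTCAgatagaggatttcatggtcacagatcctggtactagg

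Mmp3, chr9:7445722-7445821: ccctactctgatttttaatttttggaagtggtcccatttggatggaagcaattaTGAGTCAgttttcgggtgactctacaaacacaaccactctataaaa

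Mmp8, chr9:7558329-7558428: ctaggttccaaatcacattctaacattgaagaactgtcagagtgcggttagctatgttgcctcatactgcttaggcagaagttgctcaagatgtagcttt

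The AP-1 motif began 35 bases before the Mmp13 start, 44 bases before the second Mmp12 start and 46 bases before the Mmp3 start. It was not in the windows of Mmp8 and of the first Mmp12 start. Entries were found for 7 of the 10 members with 9 starts in all, and in windows from 250 bases before to 50 after the start, searched on both strands, 3 of the 9 held the motif, against 1709 of 32851 mouse promoters (5.20%). Such a match is a string of letters and not a measured binding site. Mmp2 (chr8:92827291-92853420), Mmp9 (chr2:164940780-164955850), Mmp14 (chr14:54431612-54445364), Mmp19 (chr10:128790910-128800824), Mmp23 (chr4:155650655-155653384, minus strand) and Timp1 (chrX:20870166-20874735) lie elsewhere.

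To find which wound cells make each member, the 11032 wound cells were clustered together with the 10 members left out of the genes used, which gave 15 clusters, and clusters were named from marker lists that hold none of the members. Fibroblast-like cells held almost all of the gelatinase Mmp2 (98.2% of its UMIs over the 3 wounds), of Mmp3 (98.2%), of Mmp23 (98.2%), a small membrane-anchored family member, and of Timp1 (94.0%). A cluster of 1192 cells led by Mmp12, Mmp13, Npy and Arg1 held 94.3% of Mmp12 and 87.4% of Mmp13. Neutrophil-like cells held 45.4% of the UMIs of Mmp9 (gelatinase B, a neutrophil granule enzyme) and 32.0% of those of Mmp8 (neutrophil collagenase), and the cluster led by Mmp12, called cluster 4 here, held 38.7% of Mmp9 and 56.2% of Mmp8. Mmp14, the membrane-type enzyme that activates Mmp2, was mainly in fibroblast-like cells (64.8%) and then in cluster 4 (20.6%), while Mmp19 was spread over 4 classes.

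**Figure D1:**
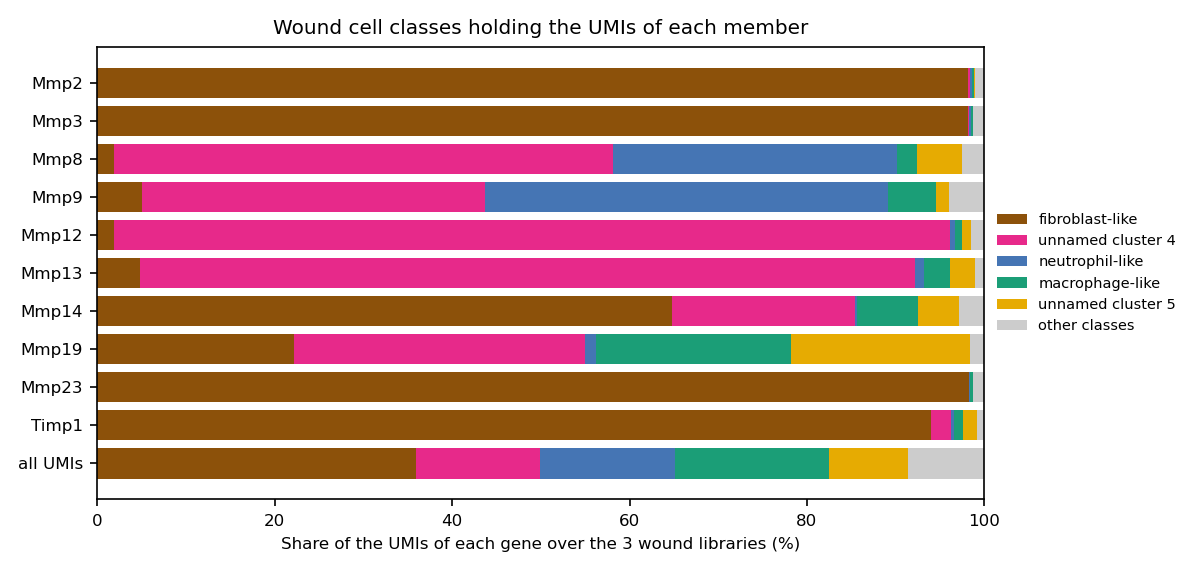
Share of the UMIs of each member held by each wound cell class (x axis, percent of the gene's UMIs over the 3 wound libraries; 1 bar per member, with all UMIs as the last bar for reference). Mmp2, Mmp3, Mmp23 and Timp1 lie almost wholly in fibroblast-like cells, Mmp12 and Mmp13 in unnamed cluster 4, and Mmp19 is divided between 4 classes.

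Cluster 4 was given no cell type name because no marker list had 3 genes at 50 CPM or more and at least 2-fold above the other cells in it. All 8 macrophage markers were read in it, but at a summed 8108 CPM against 32452 CPM in macrophage-like cells: Csf1r stood at 368 against 706 CPM, Cd68 at 506 against 711 and Adgre1 at 137 against 407. Its cells numbered 158 in control DC, 671 in Ndrg2-KO DC and 363 in blank hydrogel wounds, and 8.22% of them (98 of 1192) were among the highest 6% of doublet scores of their libraries. The 8 fibroblast markers summed to 199 CPM in it and the 8 neutrophil markers to 2910 CPM. For scale, S100a9 stood at 1198 CPM in it, 1119 in macrophage-like cells and 61546 in neutrophil-like cells. Mmp12 and Mmp13 are named among its leading genes as a description, since its cells were grouped by other genes of the same cells.

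Within fibroblast-like cells, each member was read at 1 level per wound. Mmp2 stood at 1663 CPM in control DC, 1166 in Ndrg2-KO DC and 1451 in blank hydrogel wounds. Mmp3 stood at 943, 762 and 921 CPM, and Mmp14 at 498, 380 and 473 CPM. The 3 proteases thus had their lowest value in the same library, that of Ndrg2-KO DC wounds. Mmp23 stood at 175, 211 and 182 CPM and Timp1 at 1566, 1713 and 1417 CPM in the same order, so both were highest there. For Timp1 the class sum includes a small cycling cluster with more of it, described next, whose part in this order was not tested. The range of any of these genes over the 3 wounds was less than 2-fold.

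The fibroblast-like class joined a main cluster of 1255 cells and a deep cluster of 69 cycling cells led by Anln, Pbk and Ube2c. Timp1 stood at 3187 CPM in the cycling cells and 1430 CPM in the main cluster, whereas Mmp2 stood at 576 and 1509 CPM. In control DC wounds alone the cycling cells read 4621 CPM of Timp1, in Ndrg2-KO DC wounds 3626 CPM and in blank hydrogel wounds 1682 CPM, each above the 1387 to 1459 CPM of the main cluster. These levels rest on 69 cycling cells in all, and the part of single high cells in them was not tested. Timp1 was also unequally held between single cells: 22 cells of the control DC wounds carried 50% of its UMIs there, and the highest cell carried 1267.

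To compare shares of expressing cells at equal depth, each wound cell was thinned to 1000 UMIs, which left out 185 of 11032 cells. At this depth Mmp2 was seen in 69.6% of fibroblast-like cells, Timp1 in 45.3%, Mmp3 in 41.9%, Mmp14 in 33.0% and Mmp23 in 16.1%. In T cell-like cells, which should lack these genes, the shares were 0.574%, 0.956%, 0.191%, 1.34% and 0 of 523 cells, which allows up to 0.574% of cells with a UMI at this depth and sets no limit on cells that express Mmp23. This class was mixed, with Igkc from the B cell marker list at 2899 CPM and Arg1 at 204 CPM. High doublet scores made up 11.3% of its cells. Unthinned, fibroblast-like cells were the deepest large class (median 28328 UMIs over the 3 wounds), with Mmp2 in 99.6% and Mmp23 in 94.9% of them, against 3.78% and 0.567% of T cell-like cells.

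Mmp12 and Mmp13 lay in few cells. Of 553 wound cells with at least 10 Mmp12 UMIs, 503 were in cluster 4, and of 161 such cells for Mmp13, 138 were. After thinning, Mmp12 was seen in 44.4% and Mmp13 in 15.4% of cluster 4 cells, against 3.44% and 0.765% of T cell-like cells, 2.09% and 1.42% of macrophage-like cells, and 0.529% and 0.378% of fibroblast-like cells. In Ndrg2-KO DC wounds 172 of the 363 Mmp12 UMIs of T cell-like cells lay in 1 cell. Cells with high doublet scores held 63.4% of the 363. Cells high in Mmp13 were mostly cells high in Mmp12: within cluster 4, 16 of 17 cells with at least 10 Mmp13 UMIs in control DC wounds, 85 of 104 in Ndrg2-KO DC wounds and 13 of 17 in blank hydrogel wounds also had at least 10 Mmp12 UMIs. The reverse share was small, at 17.6%, 28.1% and 11.8% of the cells high in Mmp12. In Ndrg2-KO DC wounds 17 cells held 50% of the 8900 Mmp13 UMIs, and the highest cell held 682.

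The granulocyte enzymes had 2 sources. Of 171 wound cells with at least 10 Mmp9 UMIs, 101 were in cluster 4 and 36 were neutrophil-like, and of 95 such cells for Mmp8, 74 and 15. Neutrophil-like cells instead held Mmp9 at a few UMIs in many shallow cells: after thinning it was seen in 24.6% of them and in 12.03% of cluster 4 cells, against 1.34% of T cell-like cells. Erythroid-like cells, at 11.8% (9 of 76), came close to cluster 4, and keratinocyte-like cells stood at 5.28%. Mmp8 was seen in 6.37% of neutrophil-like and 11.5% of cluster 4 cells, against 0.574% of T cell-like cells. The 2 neutrophil-like clusters differed, with Mmp9 at 432 CPM in the cluster led by Cxcr2 and Ly6g and 231 CPM in the cluster led by Il23a, Il1a and Ccl3, and Mmp8 at 115 and 74.1 CPM.

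Mmp19, a protease of monocytes and macrophages among other cells, was divided over cluster 4 (32.8% of its UMIs), fibroblast-like cells (22.2%), macrophage-like cells (22.0%) and cluster 5 (20.1%), a cluster of 972 cells with monocyte markers and MHC class II genes among its leading genes that was left unnamed. At equal depth it was seen in 28.5% of cluster 4, 31.0% of cluster 5, 20.8% of macrophage-like and 11.5% of fibroblast-like cells, against 2.29% of T cell-like cells. Macrophage-like cells comprised a main cluster with Fcrls and Ccl12 among its leading genes and a cluster led by Cd209 genes and Lyve1. Mmp19 stood at 375 CPM in the first and 164 in the second, and Mmp14 at 133 and 8.11 CPM.

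Over the 15 wound clusters, the genes whose log2(CPM + 1) most resembled each member were named by Pearson's r, as a description in which clusters share libraries and depth. Mmp2 ran closest to the collagen gene Col3a1 (r = 0.99), Adamts2 (0.99) and Col1a1 (0.99), Mmp3 to 3632451O06Rik, Cpz and Prss35 (0.99 each), and Mmp23 to Cyp1b1 and Sod3 (0.98 each) and Bmper (0.98). Mmp14 ran closest to Rai14 (0.95), Vim (0.93) and Itgav (0.93), Timp1 to Ugdh (0.94), Vasn (0.93) and Bend6 (0.93), and Mmp19 to Guca1a (0.94) and Ctsh (0.90). The remaining members had weaker partners: Mmp9 Klhdc4 (0.89), Spp1 (0.87) and Glrx (0.86), Mmp8 Dmxl2 (0.88), Lpcat2 (0.88) and Gpr84 (0.88), Mmp13 Aprt (0.88), Gpi1 (0.86) and Gde1 (0.86), and Mmp12 Plxdc1 (0.84), Stra6l (0.83) and Dcstamp (0.83). Between members, r was 0.96 for Mmp2 and Mmp3, 0.76 for Mmp8 and Mmp9 and 0.65 for Mmp12 and Mmp13.

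Wounds given Ndrg2-KO DCs were compared with wounds given control DCs, over all kept cells, to ask which members moved with the edited cells. Mmp13 stood at 19.4 CPM in control DC wounds and 181 CPM in Ndrg2-KO DC wounds, a log2 ratio of 3.22 (3.09 to 3.34). Mmp9 stood at 31.3 and 124 CPM (log2 ratio 1.98, 1.88 to 2.08), Mmp8 at 24.4 and 58.1 CPM (1.25, 1.13 to 1.37) and Mmp12 at 415 and 877 CPM (1.08, 1.05 to 1.11). These 4 proteases, each held mostly outside fibroblast-like cells, were at least 2-fold higher, whereas Mmp19, also held mostly outside them, was lower. In the other direction, Mmp2 stood at 881 and 349 CPM (log2 ratio -1.33, -1.36 to -1.31) and Mmp3 at 498 and 231 CPM (-1.11, -1.14 to -1.07).

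With a gene called where it was at least 2-fold apart and had 100 or more UMIs over both libraries, 4 of the 10 members were called higher, against 3.92% of 12207 genes, and 2 lower, against 5.28%. The remaining 4 were lower without reaching 2-fold: Mmp14 at 314 and 185 CPM (log2 ratio -0.77), Mmp19 at 340 and 190 CPM (-0.84), Mmp23 at 92.6 and 63.4 CPM (-0.55) and Timp1 at 845 and 535 CPM (-0.66). The median log2 ratio was -0.60 over the members and -0.14 over all genes compared. Under median-ratio scaling, which centres that shift, Mmp3 was at -0.96 and no longer called. With every cell given the same weight in place of every UMI, 2 members were called higher, against 1.98% of all genes compared, and 6 lower, against 16.4%: Mmp8 (0.18) and Mmp12 (0.53) were no longer called, and Mmp14, Mmp19, Mmp23 and Timp1 reached -1.05 to -1.62. The ratios of Mmp13 (2.10) and Mmp9 (1.10) were smaller by that reading. Without the highest 6% of doublet scores Mmp12 was at 0.92 and not called.

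Blank hydrogel wounds were compared with the same control DC wounds, so the 2 comparisons share that library. Mmp9 stood at 168 CPM, a log2 ratio of 2.42 (2.32 to 2.52) to the 31.3 CPM of control DC wounds, and was the 1 of 10 members called higher, against 3.06% of 11916 genes. None of the 10 was called lower, against 3.17%, although Mmp2 (463 CPM, log2 ratio -0.93), Mmp3 (291 CPM, -0.78), Timp1 (492 CPM, -0.78) and Mmp23 (57.8 CPM, -0.68) all lay below the control DC wounds. Mmp8 stood at 45.1 CPM (0.89) and Mmp13 at 26.2 CPM (0.43), and Mmp12 (361 CPM, -0.20), Mmp14 (284 CPM, -0.15) and Mmp19 (255 CPM, -0.42) differed less. With every cell given the same weight, Mmp13 was at -0.39, Mmp9 at 1.11 and Mmp12 at -1.07, with 1 member called higher, against 1.48% of genes, and 4 lower, against 11.1%, and with all deposited barcodes Mmp13 was at 1.41. The median was -0.31 over the members and -0.03 over all genes compared. Mmp12 and Mmp13 were thus highest in Ndrg2-KO DC wounds of the 3, and Mmp9 highest in blank hydrogel wounds.

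**Figure D2:**
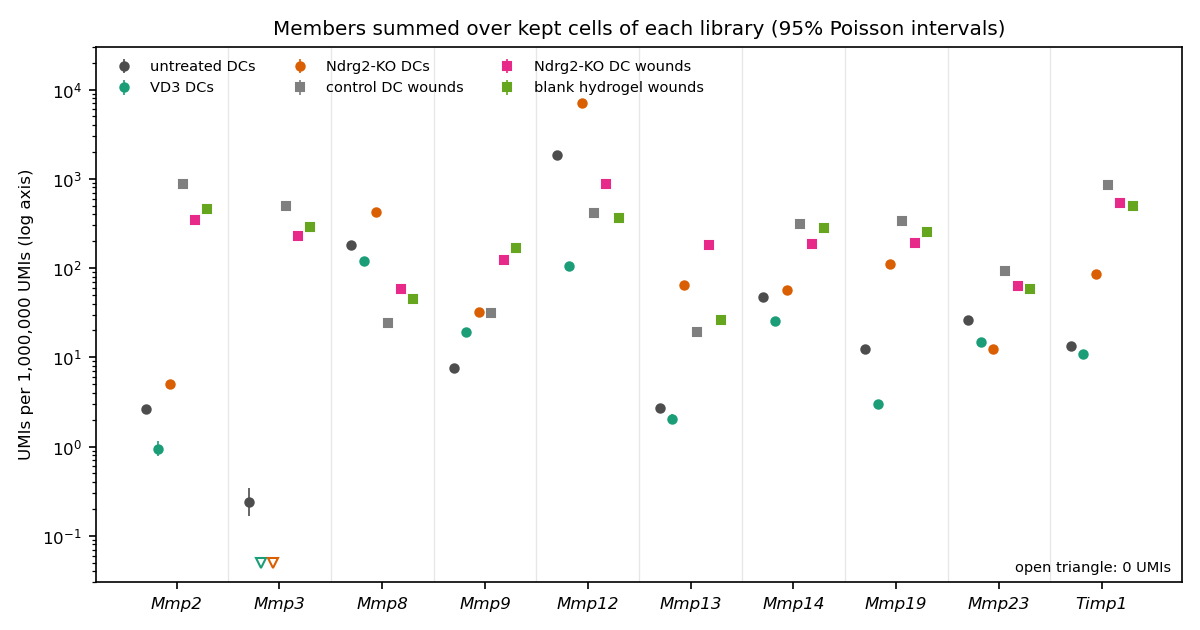
Level of each member summed over the kept cells of each library (y axis, UMIs per 1000000 UMIs, log axis; bars, exact 95% Poisson intervals, mostly smaller than the points; open triangles, 0 UMIs). Circles are the 3 cultures and squares the 3 wounds; Mmp13 stands at 64.1 CPM in Ndrg2-KO DCs against 2.68 and 2.03 in the other cultures, and at 181 CPM in Ndrg2-KO DC wounds against 19.4 and 26.2 in the other wounds.

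The cell mix moved with these comparisons. Neutrophil-like cells made up 23.5% of the cells of control DC wounds, 50.9% of Ndrg2-KO DC wounds and 45.6% of blank hydrogel wounds. Fibroblast-like cells made up 24.7%, 8.82% and 10.0%, and held 52.3%, 29.5% and 31.0% of UMIs. Cluster 4 made up 8.11%, 11.8% and 10.7% of cells. In sums over a wound, more cells of a type and more transcripts per cell cannot be told apart, so each member was also read within the class that held most of it, and the ratio was computed that the cell mix alone would give with every class held at its level over the 3 wounds.

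For the fibroblast genes the mix alone came to a log2 ratio of -0.82 for Mmp2, Mmp3 and Mmp23 and -0.77 for Timp1 between Ndrg2-KO DC and control DC wounds. Within fibroblast-like cells Mmp2 was lower by a log2 ratio of -0.51 (-0.54 to -0.48) and Mmp3 by -0.31 (-0.34 to -0.27), and both differences were less than 2-fold. Mmp23 (0.27, 0.20 to 0.35) and Timp1 (0.13, 0.10 to 0.15) were a little higher within the class while lower over the wound. The class includes the cycling cells, whose Timp1 was higher, and their part in the Timp1 ratio was not tested. Mmp14 was at -0.39 (-0.44 to -0.34) within the class, with a mix-only ratio of -0.41. In blank hydrogel wounds the within-class ratios to control DC wounds were -0.20 for Mmp2, -0.03 for Mmp3, -0.07 for Mmp14, 0.05 for Mmp23 and -0.14 for Timp1 (0.17 without the highest 6% of doublet scores), with mix-only ratios of -0.74 for the first 2 and -0.74 for Mmp23.

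Within cluster 4 the members moved in different directions. Mmp13 stood at 190 CPM in control DC, 1023 in Ndrg2-KO DC and 76.6 in blank hydrogel wounds, a log2 ratio of 2.43 (2.29 to 2.57) between the first 2, whereas the mix alone gave 0.83. With every cell given the same weight that ratio was 1.63. Mmp12 stood at 5074, 5041 and 2105 CPM, so that its within-class ratio between Ndrg2-KO DC and control DC wounds was -0.01 (-0.04 to 0.02) beside a mix-only ratio of 0.94 and a whole-wound ratio of 1.08. Mmp19 ran the other way, at 1402, 337 and 582 CPM, a log2 ratio of -2.05 (-2.13 to -1.98) between the first 2. It was also lower in Ndrg2-KO DC than in control DC wounds in macrophage-like cells (194 and 534 CPM, -1.46) and cluster 5 (407 and 780 CPM, -0.94), and higher in fibroblast-like cells (198 and 137 CPM, 0.53).

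Mmp8 in cluster 4 stood at 115, 240 and 126 CPM in control DC, Ndrg2-KO DC and blank hydrogel wounds, a log2 ratio of 1.06 (0.88 to 1.25) between the first 2, which came to 0.66 with every cell given the same weight. Mmp9 in cluster 4 stood at 30.4, 268 and 493 CPM, the lowest value resting on 72 UMIs of which 36 lay in 1 cell. In neutrophil-like cells, by contrast, Mmp9 stood at 385, 326 and 346 CPM, log2 ratios of -0.24 (-0.36 to -0.11) for Ndrg2-KO DC and -0.15 (-0.28 to -0.02) for blank hydrogel against control DC wounds. The whole-wound rise of Mmp9 thus stood beside more neutrophil-like cells at a similar level per cell and a higher level in cluster 4. Mmp8 in neutrophil-like cells stood at 191, 67.5 and 116 CPM, lowest in Ndrg2-KO DC wounds. The neutrophil-like cluster led by Il23a held 125 of 457 such cells in control DC, 1400 of 2894 in Ndrg2-KO DC and 533 of 1551 in blank hydrogel wounds. Mmp8 stood at 124, 55.4 and 108 CPM in it and at 219, 81.8 and 122 CPM in the cluster led by Cxcr2.

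**Figure D3:**
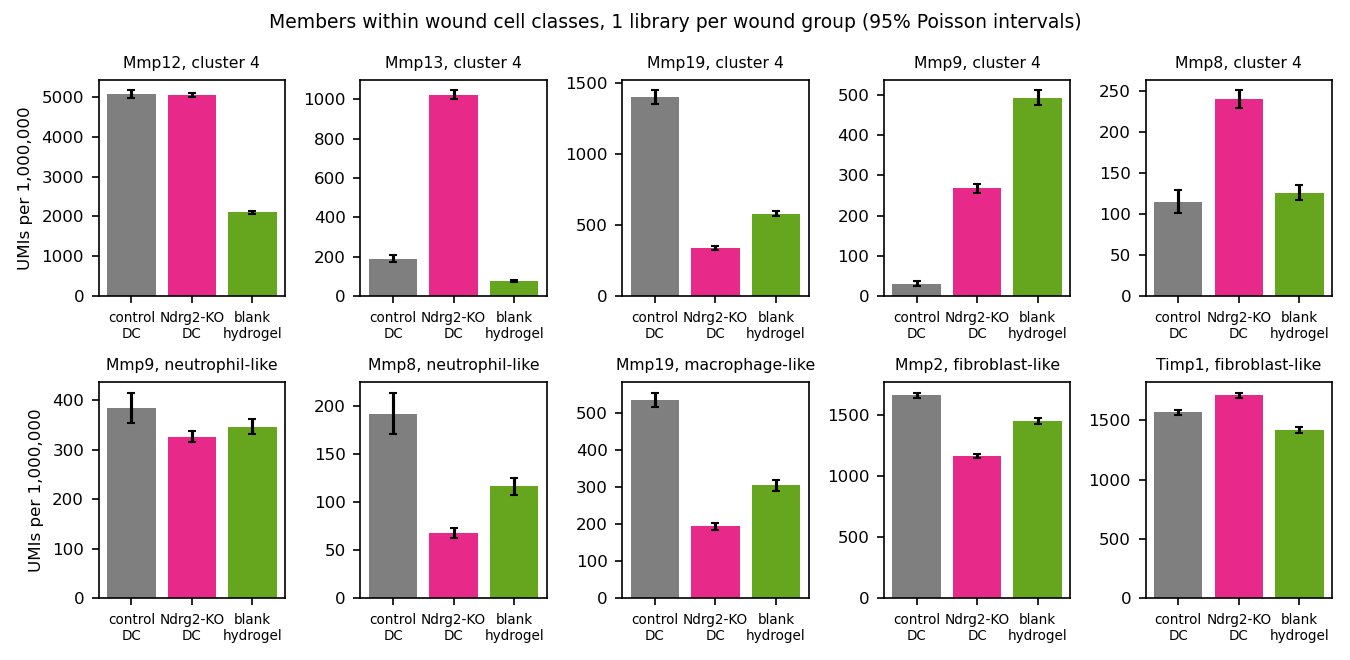
Members within the wound cell classes that held most of their UMIs (y axes, UMIs per 1000000 UMIs of the class; bars, 1 library per wound group, with exact 95% Poisson intervals). In cluster 4, Mmp13 is highest in Ndrg2-KO DC wounds (1023 CPM) and Mmp19 highest in control DC wounds (1402 CPM), while Mmp9 in neutrophil-like cells lies between 326 and 385 CPM.

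**Figure D4:**
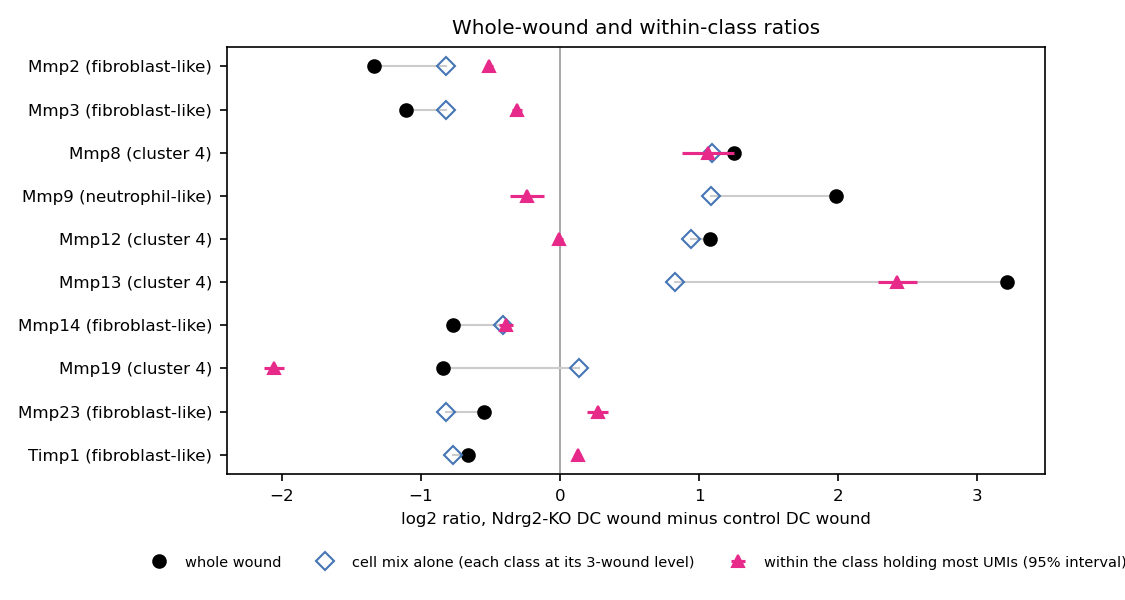
Log2 ratio of Ndrg2-KO DC to control DC wounds for each member (x axis): over the whole wound (filled circles), from the cell mix alone (open diamonds) and within the class named beside the gene, which held most of its UMIs (triangles, with 95% counting intervals). For 6 of 10 members the within-class ratio has the sign of the whole-wound ratio, and for Mmp12 it is -0.01.

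Cluster 4 was not uniform. At a finer resolution (1.0 in place of 0.5) most of its cells fell into 2 clusters, of which the one with the higher Mmp12 held 41.1% of cluster 4 cells in control DC, 70.2% in Ndrg2-KO DC and 36.1% in blank hydrogel wounds. Within that finer cluster Mmp12 stood at 8873, 6424 and 3084 CPM and Mmp13 at 356, 1328 and 91.5 CPM, in the same order. In the other, Mmp12 stood at 3416, 2279 and 1343 CPM and Mmp13 at 113, 309 and 76.0 CPM. Mmp13 was therefore highest in Ndrg2-KO DC wounds in both, while Mmp12 was lower there than in control DC wounds in both.

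Among cultured DCs, 24051 cells gave 16 clusters, and most states came from 1 library, so state and condition cannot be told apart for them. VD3 DCs were compared with untreated DCs first. Mmp12 stood at 1864 CPM in the untreated and at 105 CPM in the VD3 culture, a log2 ratio of -4.16 (-4.18 to -4.13), which is 17.8-fold lower. Mmp19 stood at 12.5 and 2.98 CPM (-2.07, -2.24 to -1.90) and Mmp2 at 2.64 and 0.945 CPM (-1.48, -1.81 to -1.17). Mmp9 was the member that went the other way, at 7.63 and 19.4 CPM (1.34, 1.24 to 1.45). Of the 9 members with enough UMIs, 1 was called higher, against 3.68% of 12296 genes, and 3 lower, against 6.61%. The others lay lower by less than 2-fold, with log2 ratios of -0.91 for Mmp14, -0.82 for Mmp23, -0.62 for Mmp8, -0.40 for Mmp13 and -0.30 for Timp1. Timp1 was at 0.22 without 1 untreated cell that held 542 of its 1783 UMIs, and at 0.35 without the highest 6% of doublet scores. The median was -0.82 over the members and -0.08 over all genes compared. With cells limited to under 5% mitochondrial UMIs, Mmp8 (0.18) and Mmp13 (1.52) lay higher in VD3 DCs instead, and Mmp9 was at 2.32.

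Ndrg2-KO DCs were compared with the same untreated culture. Mmp13 stood at 2.68 CPM without and at 64.1 CPM with the edit, a log2 ratio of 4.58 (4.43 to 4.74), or 23.9-fold. Mmp19 stood at 12.5 and 110 CPM (3.13, 3.06 to 3.21), Timp1 at 13.4 and 85.5 CPM (2.67, 2.60 to 2.74) and Mmp9 at 7.63 and 32.3 CPM (2.08, 1.98 to 2.18). Mmp12 stood at 7081 CPM in Ndrg2-KO DCs (1.93) and Mmp8 at 183 and 430 CPM (1.23, 1.21 to 1.25). Mmp23 fell below, at 26.0 and 12.4 CPM (-1.06, -1.15 to -0.98). Thus 6 of 9 members compared were called higher, against 9.12% of 12461 genes, and 1 lower, against 7.94%, while Mmp2 (2.64 and 5.06 CPM, 0.94) and Mmp14 (47.6 and 56.5 CPM, 0.25) were not called. The median was 1.93 over the members and -0.06 over all genes compared. With cells limited to under 5% mitochondrial UMIs, Timp1 (1.46) was less high, Mmp13 (5.26), Mmp9 (2.76) and Mmp23 (-1.72) moved further out, and Mmp2 (2.16) and Mmp14 (1.04) were called too. Without neutrophil-like cells Mmp9 was at 3.86, and with every cell given the same weight it was at 1.07, where Mmp8 (0.97) and Mmp23 (-0.87) were no longer called and Mmp2 (1.05) was. In VD3 DCs, for comparison, Timp1 stood at 10.9 CPM, Mmp13 at 2.03 CPM and Mmp8 at 119 CPM.

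By state, the premature DC-like cells, named from 4 of 7 immature markers such as Csf1r and Fn1, held most of these transcripts in the Ndrg2-KO culture, where they were 45.1% of cells. They held 69.9% of its Mmp12, 75.5% of Mmp13, 70.7% of Mmp19, 61.8% of Mmp8 and 56.1% of Timp1, beside 51.2% of all UMIs. Their levels were 9655 CPM for Mmp12, 519 for Mmp8, 151 for Mmp19, 94.5 for Mmp13 and 93.6 for Timp1. Proliferating-like cells of the same culture had similar levels, at 8456 CPM for Mmp12, 606 for Mmp8, 107 for Mmp19, 62.8 for Mmp13 and 113 for Timp1. The other 2 cultures held 4 and 1 premature DC-like cells. Csf1r did not set this class apart from unnamed cluster 9, which held 1114 untreated cells. Over all cultures it stood at 286 CPM in premature DC-like cells and 295 CPM in cluster 9.

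In untreated DCs, Mmp12 was divided between proliferating-like cells (47.0%, 2060 CPM) and cluster 9 (51.3%, 5091 CPM), an unnamed cluster of 1114 untreated cells with Plet1, Cxcl3, Mgl2 and Ccl17 among its leading genes. Cluster 9 also held 51.0% of Mmp19 and 64.2% of Mmp13, at 33.9 and 9.16 CPM. The 355 Mmp13 UMIs of untreated DCs lay in 99 cells, with 50% in 8 cells and 18.9% in the highest cell. In VD3 DCs, macrophage-like cells held 76.3% of the little Mmp12 there was (326 CPM), 92.4% of Mmp13 and 68.9% of Mmp19. Over all cultures this class had Adgre1 at 101 CPM, against 31.1 in premature DC-like cells. Its Cd68 (92.9 against 199 CPM) and Csf1r (235 against 286 CPM) were lower than in those cells. It also carried Ccl17 at 1552 and Ccr7 at 260 CPM, and whether its cells are macrophages was not tested. The 218 Mmp13 UMIs of the class in VD3 DCs lay in 17 of 1452 cells, with 50% in 3 cells. Mmp12 was read in 490 and Mmp19 in 143 of the 1452. Of these cells 17.2% were among the high doublet scores, and those cells held 3.85% of the class's Mmp12, 1.38% of its Mmp13 and 10.9% of its Mmp19. At equal depth (2000 UMIs, which left out 1755 of 24051 cells) Mmp12 was seen in 97.7% of premature DC-like cells of the Ndrg2-KO culture, 95.9% of untreated cluster 9 cells, 15.5% of VD3 macrophage-like cells and 0.868% of VD3 mature DC-like cells.

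Mature DC-like cells, which carry Ccr7 and Fscn1, held Mmp23 in every culture: 82.4% of its UMIs in untreated, 83.7% in VD3 and 68.8% in Ndrg2-KO DCs, at 67.9, 28.5 and 48.1 CPM. The class joins clusters that the cultures filled unequally: 2601 of 2713 such untreated cells were in cluster 2, 3295 of 3488 VD3 cells in cluster 1 and 1832 of 2112 Ndrg2-KO cells in cluster 5, so cluster and culture cannot be told apart in these levels. The same cells made up 37.4%, 39.5% and 26.5% of the 3 cultures. The lower Mmp23 of the VD3 culture (14.8 CPM over all cells) was therefore seen within this state, and in the Ndrg2-KO culture both the level and the share of the state were lower than in untreated DCs. Mmp12 in mature DC-like cells stood at 45.01, 5.28 and 250 CPM, seen at equal depth in 5.63%, 0.868% and 37.6% of them. Free RNA of other cells in a droplet can give such counts, and its part was not tested. In the Ndrg2-KO culture the highest single mature DC-like cell held 123 of 6381 Mmp12 UMIs.

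Neutrophil-like cells had the highest level of Mmp8 and Mmp9 of the states in the 3 cultures but not always the largest share. For Mmp8 in the Ndrg2-KO culture this rank rested on 79 UMIs in 32 cells, with proliferating-like cells close to it. They held 14.8% of Mmp8 in untreated DCs, where proliferating-like cells held 62.0%, and 26.0% in VD3 DCs, where macrophage-like cells held 45.5% and unnamed cluster 8 held 25.9%. Mmp8 stood in them at 762, 828 and 679 CPM in untreated, VD3 and Ndrg2-KO DCs (the last on 79 UMIs) and Mmp9 at 158, 443 and 1985 CPM. They were 12.7% and 12.6% of the untreated and VD3 cells but 0.402% (32 cells) of the Ndrg2-KO cells. The higher Mmp9 of the VD3 culture lay with them: they held 85.5% of its Mmp9 UMIs, and without neutrophil-like cells in either culture Mmp9 was at a log2 ratio of 0.46 and not called. In the Ndrg2-KO culture 51.7% of Mmp9 was instead in cluster 11, an unnamed cluster of 480 cells led by Mmp9, Chil1 and Adgre4, at 522 CPM. Mmp8 there was mostly in premature DC-like and proliferating-like cells.

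**Figure D5:**
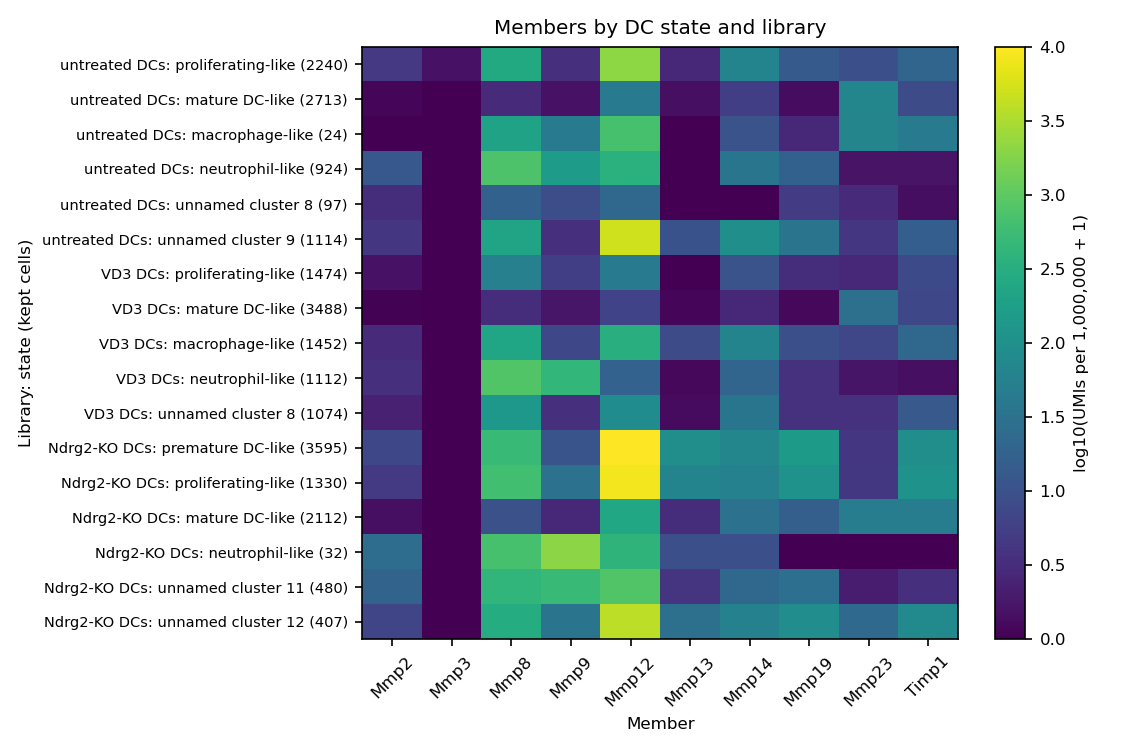
Members (columns) by DC state and library (rows, with the number of kept cells; states of under 20 cells in a library are left out), coloured by log10(UMIs per 1000000 UMIs + 1). Mmp12 is highest in premature DC-like (9655 CPM) and proliferating-like (8456 CPM) Ndrg2-KO DCs, Mmp9 in neutrophil-like cells and cluster 11, and Mmp23 in mature DC-like cells.

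Of the 7969 cells of the Ndrg2-KO culture, 4992 had at least 10 Mmp12 UMIs, 2220 at least 10 of Mmp8, 342 of Mmp19, 262 of Timp1 and 255 of Mmp13. Mmp13 was unevenly held: 163 Ndrg2-KO cells carried 50% of its UMIs, as did 8 untreated and 3 VD3 cells in their libraries. Over the 16 DC clusters Mmp12 ran closest to Fn1 (r = 0.97), F7 (0.96) and Cndp2 (0.96), Mmp13 to Slc6a8 (0.97), Wfs1 (0.96) and Cpeb1 (0.96), Mmp19 to Ccny (0.96), Sfxn3 (0.96) and Ear2 (0.95), Mmp8 to Cd33 (0.98), Cmklr1 (0.97) and Cd300ld (0.97), and Mmp23 to Slamf7 (0.96), Sh3bp4 (0.96) and 2200002D01Rik (0.96), again as a description. Mmp2 ran closest to Nxpe5, Kcnn3 and Ptger2 (0.94 each), Mmp9 to Siglece (0.93), Oas2 (0.91) and Kcnn3 (0.90), Mmp14 to Cul4a (0.94), Msr1 (0.93) and Lrp1 (0.93), and Timp1 to Maoa, Pkp2 and Maged1 (0.92 each).

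Mmp3 was seen in 1 cell of the cultures. All 32 of its UMIs in untreated DCs lay in a cell of 58539 UMIs and 7087 genes, where the library median was 15804 UMIs, and VD3 and Ndrg2-KO DCs had 0, which allows up to 0.0258 and 0.0209 CPM (3 counts of the total). The same cell held 542 of the 1783 Timp1 UMIs of its library (30.4%), 23 of 355 Mmp13 UMIs, 86 of 87 Col1a1, all 123 Col1a2, all 55 Col3a1 and 121 of 122 Dcn UMIs, and 0 UMIs of Itgax. Its doublet score stood above 94.8% of its library. Without it, Timp1 lay at a log2 ratio of 0.22 in VD3 against untreated DCs, in place of -0.30.

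The rest of the proteolytic system was read from 4 lists. Over all genes compared, 3.92% were called higher and 5.28% lower in Ndrg2-KO DC wounds, and 3.06% and 3.17% in blank hydrogel wounds. The share of fibroblast-like cells moved with these sums, at 24.7% of cells in control DC, 8.82% in Ndrg2-KO DC and 10.0% in blank hydrogel wounds, and its part in the list genes was not tested. In Ndrg2-KO DC against control DC wounds, 1 of 4 other Mmp genes with enough UMIs was higher (Mmp10, stromelysin-2, 0.539 and 2.32 CPM in control DC and Ndrg2-KO DC wounds, log2 ratio 2.10, on 16 and 114 UMIs) and 1 lower (Mmp11, 9.27 and 2.66 CPM, -1.80). None of 3 other inhibitors was called, with the highest of them, Timp2, at 1008 and 684 CPM (-0.56). Of 8 genes of the plasminogen system 1 was higher, the urokinase receptor gene Plaur (277 and 629 CPM, 1.18), and of 14 ADAM and ADAMTS proteases 3 were lower, Adam12 (-1.12), Adamts9 (-1.49) and Adamts12 (-1.37). Mmp10 reached the minimum of 100 UMIs through the group where it was high, so this call was largely set by the filter. The same holds in blank hydrogel wounds, where Mmp10 was at 2.49 CPM (2.21, on 87 UMIs). There 5 of 14 ADAM and ADAMTS genes were lower: Adam12 (-1.10), Adamts1 (-1.12), Adamts4 (-1.63), Adamts9 (-1.30) and Adamts12 (-1.06). None of 3 inhibitors and none of 8 plasminogen genes was called there.

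In the cultures, 3.68% of all genes compared were called higher and 6.61% lower in VD3 DCs, and 9.12% and 7.94% in Ndrg2-KO DCs. VD3 DCs had Timp2 lower (17.2 CPM in untreated and 6.49 in VD3 DCs, log2 ratio -1.40), Plau (-2.87) and Plaur (-1.86) lower among 6 plasminogen genes, and Adam8 (-1.33) and Adam15 (-1.18) lower and Adam19 (1.32) higher among 6 ADAM genes. Ndrg2-KO DCs had Timp2 higher at 73.6 CPM (2.10), Serpinb2 lower (-2.95) among 7 plasminogen genes, and Adam9 (1.36) and Adam12 (1.47) higher among 7 ADAM genes. The 1 other Mmp gene with enough UMIs in the cultures, Mmp25, was called in neither comparison. Timp2, like Timp1, thus stood higher in Ndrg2-KO than in untreated DCs.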

How the data were processed

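The members and lists were chosen with earlier results of these data known. The authors deposited raw UMI counts as a matrix of genes by barcodes for each library, from Cell Ranger 3.1.0 (DCs) or 6.0.0 (wounds) per the file headers, of 3′ droplet libraries. The study's methods name genome build mm10 and the submitters' notes mm9, so no coordinate was taken from the count files. Gene positions and promoters come from GENCODE M21 (GRCm38) and RefSeq.

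Barcodes entered the analysis when 300 or more genes were seen, the total lay below 100000 UMIs and mitochondrial UMIs made up less than 10%. Doublet scores came from Scrublet in scanpy 1.11.5, whose automatic threshold marked 0 to 0.873% of cells and so did not work. Doublets were therefore kept, and the highest 6% of scores were left out only as an alternative. Cells of the cultures and of the wounds were clustered separately in Seurat 5.3.0 (R 4.3.3): log-normalization to 10000, 2000 variable genes without the members, 15 principal components, 15 neighbours, Louvain resolution 0.5. A cluster was named from a marker list when at least 3 of its markers stood at 50 CPM or more and at least 2-fold above the other cells, and stayed unnamed where another list led its top 10 genes. Clusters with names rebuilt in this way may differ from those of the study.

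UMIs were summed per library or class and given per 1000000 UMIs (CPM) with exact Poisson intervals, log2 ratios with exact conditional binomial intervals and shares with exact binomial intervals, all 95% and for counting error only. Counts are UMIs, so PCR copies of a molecule count once. A gene was compared at 100 or more UMIs in the 2 sums and called at 2-fold. All 10 members were named, list genes where called or highest of their list, and for likeness the 3 genes of at least 200 UMIs with the highest Pearson's r, of which 1 for Mmp19 is not reported here. The ratio computation was checked on simulated counts. Per the labels each condition has 1 sample, so no test was run. Alternatives changed the cell filter, doublets, scaling, weighting, fold, count minimum, clustering and thinning depth, and 3 more were chosen after seeing the data: leaving out 1 untreated DC, unnamed cluster 12 of the Ndrg2-KO DCs or the neutrophil-like cells.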

Additional observations from a re-analysis of the deposited data

Results flagged for a closer look

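Opposite directions in 2 classes of the same wounds were seen for Mmp8, Mmp19, Mmp12 and Mmp13, and none of these differences between classes was tested, with 1 library per group. Mmp8, between Ndrg2-KO DC and control DC wounds, was at a log2 ratio of 1.06 in cluster 4 (1922 and 272 UMIs) and -1.50 in neutrophil-like cells (659 and 311 UMIs). With every cell given the same weight the first was 0.66. In cluster 4 the highest cell held 7.23% of the Mmp8 UMIs in Ndrg2-KO DC wounds and 9.93% in control DC wounds, and cells with high doublet scores held 10.7% and 1.84%.

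Mmp19, in the same comparison, was at 1.38 in keratinocyte-like cells, a mixed cluster that also had melanocyte and mast cell genes, and at -2.05 in cluster 4. The first value rests on 70 and 37 UMIs. In the Ndrg2-KO DC wounds 33 of the 70 lay in 1 cell and 80.0% in cells with high doublet scores.

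Mmp12, between blank hydrogel and control DC wounds, was at 2.82 in T cell-like cells and -1.27 in cluster 4. The 239 Mmp12 UMIs of T cell-like cells in blank hydrogel wounds lay in 4 of 123 cells, with 113 in the highest, and in control DC wounds 93.8% of 32 lay in cells with high doublet scores. Mmp13, in the same comparison, was at 3.13 in macrophage-like cells (206 and 23 UMIs) and -1.31 in cluster 4 (431 and 451 UMIs). Of the 206 UMIs, 70 lay in 1 of 452 cells and 3.88% in cells with high doublet scores.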

How the results depend on the processing

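Counts of called members moved by less than 1.5 times under most settings. For VD3 against untreated DCs, 4 members were called, and 7 at a fold of 1.5 (1 higher and 6 lower, against 8.91% and 15.0% of all genes compared). For blank hydrogel against control DC wounds, 1 was called, and 2 with all deposited barcodes (Mmp13 at 1.41; both higher, against 3.51%), 2 without the highest 6% of doublet scores (Mmp2 at -1.02; 1 higher and 1 lower, against 369 and 350 of 11657 genes), 5 with every cell weighing the same (1 higher and 4 lower, against 1.48% and 11.1% of genes) and 6 at a fold of 1.5 (2 higher and 4 lower, against 8.32% and 11.4%). The count ran from 3 to 5 otherwise for VD3, where 2.39% to 7.94% of all genes were called higher and 5.15% to 10.4% lower. Over all settings it ran from 6 to 9 for Ndrg2-KO against untreated DCs (main 7), with 7.23% to 17.0% of genes higher and 5.81% to 17.9% lower, and from 5 to 9 for Ndrg2-KO DC against control DC wounds (main 6), with 1.98% to 8.86% higher and 3.54% to 16.4% lower. In that last comparison Mmp12 was at 0.92 and not called without the highest 6% of doublet scores. Without neutrophil-like cells 3 members were called for VD3, all lower, against 7.02% of genes lower and 3.78% higher. The causes were not tested.

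The wound class that held most of each member stayed for 10 of 10 under all 5 clustering and doublet alternatives. The DC state stayed for 8 or 9 of 9: Mmp14 passed to premature DC-like cells with 30 principal components, with members among the variable genes and without high doublet scores, and Mmp9 to cluster 11 with each library clustered alone. Of the other values, 192 moved beyond their counting interval and 274 did not, and no called value changed sign. No paired analysis was possible because each group has 1 library. Counts were low for Mmp2 and Mmp13 in untreated (350 and 355 UMIs) and VD3 DCs (110 and 236), Mmp19 in VD3 DCs (347) and Mmp3 in all 3 cultures (0 to 32), among the library sums.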
